A study of Mus musculus with 8 samples.

Results

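The 8 genes described here encode transcription factors of the B cell lineage: Pax5, Ebf1, Spib, Pou2af1, Pou2f2, Bach2, Bcl11a and Foxo1. They were taken by name from the table of raw read counts, where each symbol matched 1 of 21878 rows, and all 8 were among the 11718 genes with enough counts to be tested. RNA came from the peripheral blood of female wild-type C57BL/6 mice, 6 to 8 weeks of age. The stress group (n = 4) spent 6 hours in a ventilated tube with neither food nor water, and the control group (n = 4) consisted of littermates left in their cage, likewise with neither. The comparison asked how this restraint altered the transcripts of blood cells. Blood was not sorted, so every value below was measured on the RNA of all blood cells together. The labels number 4 samples in each group without naming the animals, and p-values measure the spread between these samples.

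The B cell program is built in steps. Ebf1 and Pax5, with Foxo1, switch on and hold the genes that make a cell a B cell, and Pax5 also silences genes of other lineages. Pou2f2 (Oct-2) binds the octamer element of immunoglobulin genes, and Pou2af1 (OCA-B) is a coactivator recruited to it rather than a DNA-binding factor of its own. Spib is an ETS factor that acts with its relative Spi1 (PU.1) in signalling through the B cell receptor. Bach2 represses Prdm1 and so holds back plasma cell formation, and Bcl11a is required for early lymphoid development. Foxo1 and Bach2 are also used by T cells, and Spib and Bcl11a by plasmacytoid dendritic cells.

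The total count per sample was 31471145 to 39014775 in the control samples and 25978683 to 29655725 in the stress samples. Haemoglobin genes took 51.9% to 63.8% of the control counts and 61.2% to 75.5% of the stress counts. Stress replicate 3 stood apart, with the highest haemoglobin share and the fewest other counts, 6355715. The counts of the 8 factors ran from 189 for Ebf1 in that sample to 7563 for Pax5 in control replicate 3. All 15 genes of a B cell marker list, Cd79a, Cd79b and Ms4a1 among them, were detected in every sample, with at least 75 counts each.

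All 8 factors were lower in the stress group than in the control group, by 15.5% for Pou2af1 to 35.5% for Pou2f2, and 5 of the 8 passed the test, whereas with scaling to B cell marker counts 5 of the 8 were lower and none passed, in a fit that called 0.0683% of all tested genes lower. Pax5, Pou2f2, Bach2, Bcl11a and Foxo1 fell at an adjusted p below 0.05 (edgeR quasi-likelihood test with Benjamini-Hochberg adjustment over all genes tested), against 3.69% of all tested genes called lower. The median log2 fold change of the 8 was -0.57, and that of all tested genes was -0.02. For the same 5 factors the stress samples all lay under the lowest control sample in CPM (counts scaled to a common library size), which held for 9.87% of all tested genes. The thresholds of the study ask for an adjusted p below 0.01 and a log2 fold change beyond 1 in size. None of the 8 was called at them with edgeR, DESeq2 or limma-voom. With edgeR, those thresholds called 0.0171% of all tested genes lower. All 8 had an unadjusted p below 0.05 with edgeR, and so did 1524 of the 11718 tested genes in the lower direction. Directions and sizes here and below are relative to TMM scaling and are not plain shares of the RNA. With total counts alone the 8 factors had log2 fold changes of -1.36 to -1.07. Over the whole table the median was -0.82 (log2) with total counts alone and 0.42 with scaling to B cell marker counts. In bulk blood, fewer B cells and less of a transcript per B cell cannot be told apart. Every factor had a negative log2 fold change without any 1 sample. The number past the test was 1 without control replicate 2 or stress replicate 2, 2 without control replicate 1 or 3, 3 without stress replicate 3, 4 without stress replicate 1, 5 without control replicate 4, and 7 without stress replicate 4. The share of all tested genes called lower also moved, being 0.702% without control replicate 2, 1.66% without stress replicate 2, 1.35% and 0.888% without control replicates 1 and 3, and 3.14% without stress replicate 3. It was 2.13% without stress replicate 1, 2.41% without control replicate 4 and 6.27% without stress replicate 4. Bach2 was the factor that passed in each of these 8 fits, with an adjusted p of 0.00461 to 0.0367.

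**Figure D1:**
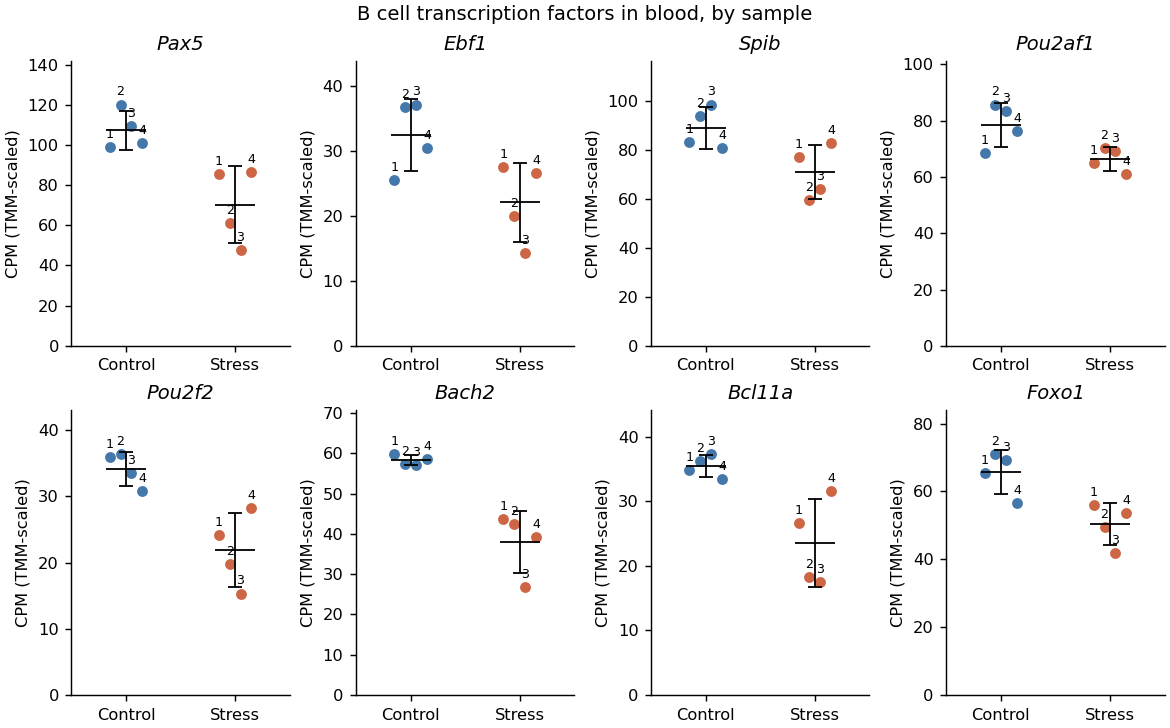
CPM of the 8 factors (y axes, counts scaled to TMM library sizes, starting at 0) in each control and stress sample, with 1 point per sample, numbered by replicate, and the mean ± SD of 4 samples beside them. The stress samples lie under the control samples for Pax5, Pou2f2, Bach2, Bcl11a and Foxo1, and the groups overlap for Ebf1, Spib and Pou2af1.

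Ebf1 and Pax5 stand at the head of the program. Pax5 measured 99.0, 120.1, 109 and 101 CPM in control replicates 1 to 4 and 85.7, 61.2, 47.8 and 86.4 CPM in stress replicates 1 to 4. Stress replicates 2 and 3 were low, and stress replicates 1 and 4 lay closer to the control samples without reaching them. Its mean fell from 107 ± 9.63 to 70.3 ± 19.0 CPM (SD, n = 4), giving a log2 fold change of -0.61 (SE 0.17, edgeR adjusted p = 0.0337). Ebf1 measured 25.5, 36.7, 37.1 and 30.5 CPM in the control samples and 27.5, 20.0, 14.3 and 26.5 CPM in the stress samples. Control replicate 1 was the lowest control and lay below stress replicates 1 and 4, so the groups overlapped. The log2 fold change of Ebf1, -0.55 (SE 0.19), was close in size to that of Pax5 but did not pass (edgeR adjusted p = 0.0730). Without stress replicate 3 the log2 fold changes were -0.45 for Pax5, which still passed, and -0.38 for Ebf1. Of the 8 fits without 1 sample, Pax5 passed in 4 and Ebf1 in 1. The largest adjusted p of Pax5 in them was 0.107 (edgeR, without control replicate 2).

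Foxo1, which acts upstream of recombination-activating genes and is held inactive by PI3K signalling, measured 65.4, 71.2, 69.4 and 56.6 CPM in the control samples and 56.1, 49.6, 42.0 and 53.5 CPM in the stress samples. The groups were separated only by the gap between control replicate 4 and stress replicate 1. Its log2 fold change was -0.38 (SE 0.12, edgeR adjusted p = 0.0483), and -0.29 without stress replicate 3, where it did not pass. Foxo1 passed in 2 of the 8 fits without 1 sample.

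The octamer factor Pou2f2 passed the test and its coactivator Pou2af1 did not, but the ratio of Pou2af1 to Pou2f2 overlapped between the groups, with a log2 difference of 0.43 (-0.21 to 1.24, two-sided exact permutation p = 0.200). Pou2f2 measured 35.9, 36.5, 33.5 and 30.8 CPM in the control samples and 24.2, 19.8, 15.3 and 28.3 CPM in the stress samples. All 4 stress samples lay under the lowest control, and the log2 fold change was -0.63 (SE 0.16, edgeR adjusted p = 0.0174). Pou2af1 measured 68.6, 85.8, 83.4 and 76.4 CPM in the control samples and 64.9, 70.3, 69.3 and 60.9 CPM in the stress samples. Stress replicates 2 and 3 lay above control replicate 1, and the log2 fold change, -0.24 (SE 0.11), did not pass (edgeR adjusted p = 0.152). Relative to its control mean, Pou2af1 was the factor least low in stress replicate 3, the sample with the lowest CPM of 6 of the other factors.

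Spib measured 83.2, 94.2, 98.7 and 80.9 CPM in the control samples and 77.4, 59.5, 64.0 and 83.0 CPM in the stress samples. Stress replicate 4 lay above control replicate 4, and the log2 fold change of -0.33 (SE 0.13) did not pass (edgeR adjusted p = 0.105). The promoters of Spib and Pou2af1 are shown because, of the 8 factors, these were the ones that held the letters of the octamer core in the 250 bases before the annotated start, and the Pax5 promoter is shown as one without a match. Capitals mark TGCAAAT, searched on both strands, and for Spib also 2 overlapping matches to CCCNNGGG, a palindrome of the kind bound by Ebf1. Sequences are from RefSeq on GRCm38.p6, written 5′ to 3′ on the strand of the gene. Spib lies at chr7:44532072-44532321 on the minus strand, Pou2af1 at chr9:51213440-51213689 on the plus strand and Pax5 at chr4:44710695-44710944 on the minus strand.
Spib: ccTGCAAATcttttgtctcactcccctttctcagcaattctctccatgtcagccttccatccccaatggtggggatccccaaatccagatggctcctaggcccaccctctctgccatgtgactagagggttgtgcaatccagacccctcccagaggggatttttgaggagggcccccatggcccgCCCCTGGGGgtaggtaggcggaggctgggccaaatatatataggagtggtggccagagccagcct
Pou2af1: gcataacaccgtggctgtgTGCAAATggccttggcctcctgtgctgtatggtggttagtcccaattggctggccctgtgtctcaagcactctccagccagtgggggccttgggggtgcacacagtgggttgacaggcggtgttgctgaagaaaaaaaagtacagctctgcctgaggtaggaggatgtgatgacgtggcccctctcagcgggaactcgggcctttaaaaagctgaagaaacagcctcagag
Pax5: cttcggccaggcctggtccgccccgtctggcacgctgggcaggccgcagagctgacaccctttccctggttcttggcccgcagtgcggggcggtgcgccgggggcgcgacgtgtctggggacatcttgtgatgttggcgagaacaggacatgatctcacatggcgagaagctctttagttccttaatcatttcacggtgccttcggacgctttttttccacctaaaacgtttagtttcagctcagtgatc
The octamer core begins 248 bases before the start of Spib and 231 bases before that of Pou2af1. It is held by 3.56% of 32851 mouse promoters of this length and by 2 of the 13 promoters found for the B cell markers, and CCCNNGGG, also found once before Foxo1, is held by 11.8% of all promoters. The letters ATGCAAAT (in 1.6% of all promoters), GAGGAAG (10.6%), TGTTTAC (3.17%) and TGAGTCA (4.46%) were searched in the same way and matched in none of the 8 factors' windows. The 7-letter core was chosen after these promoters had been read. A match is a description of the letters and was not tied to binding.

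The repressors Bach2 and Bcl11a were the tightest of the 8 in the control group. Bach2 measured 59.9, 57.5, 57.1 and 58.6 CPM in the control samples and 43.7, 42.5, 26.9 and 39.2 CPM in the stress samples. Every stress sample lay well under the control samples, and the log2 fold change was -0.61 (SE 0.14, edgeR adjusted p = 0.0110), the lowest p of the 8 factors. Bcl11a measured 34.8, 36.2, 37.4 and 33.4 CPM in the control samples and 26.7, 18.3, 17.5 and 31.7 CPM in the stress samples. Stress replicate 4 came within a small distance of control replicate 4. The log2 fold change of Bcl11a was -0.58 (SE 0.17, edgeR adjusted p = 0.0344), and -0.45 without stress replicate 3, where it did not pass. Bcl11a passed in 3 of the 8 fits without 1 sample.

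Per kilobase of exon, the level of the factors was highest for Spib and Pou2af1, at 31.1 ± 2.99 and 30.8 ± 3.04 CPM per kb in the control group (SD, n = 4), and these did not differ beyond their spread. Pax5 followed at 12.1 ± 1.09, Foxo1 at 7.57 ± 0.748 and Bach2 at 5.86 ± 0.129 CPM per kb. Pou2f2 at 4.15 ± 0.313, Ebf1 at 3.33 ± 0.569 and Bcl11a at 2.69 ± 0.131 CPM per kb came last. In the control group the ranges of Pou2af1, Pax5, Foxo1, Bach2 and Pou2f2 lay apart from one to the next, while those of Pou2f2, Ebf1 and Bcl11a overlapped with their neighbour. In the stress group the ranges also overlapped between Pax5 and Foxo1 and between Bach2 and Pou2f2. The stress means kept the order of levels except that Pou2af1, at 26.0 ± 1.69 CPM per kb, came before Spib, at 24.7 ± 3.84 CPM per kb.

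The B cell markers moved the same way as the factors. All 15 markers had a negative log2 fold change, with a median of -0.45. At an adjusted p below 0.05, 9 of them fell, against 3.69% of all tested genes called lower. The summed CPM of the markers was 1223 to 1502 in the control samples and 840 to 1085 in the stress samples, without overlap. For single genes, all stress samples lay under all control samples in 9.87% of those tested. Cd79a and Cd79b, the signalling chains of the B cell receptor, were among the 6 that did not pass. When each factor was divided by the summed counts of the 15 markers in the same sample, none of the 8 factors differed between the groups without overlap, in a table where 31.9% of all tested genes did in one direction or the other. Pax5 was 7.91% ± 0.422 of the marker counts in the control samples and 7.01% ± 1.72 in the stress samples (SD, n = 4). The log2 difference was -0.21, with shifts from -0.85 to 0.18 not rejected (two-sided exact permutation test, p = 0.457), and it was -0.01 without stress replicate 3. The log2 differences of the other factors ran from -0.24 for Pou2f2 (-1.02 to 0.22, exact permutation p = 0.371) to 0.20 for Pou2af1 (-0.14 to 0.59, exact permutation p = 0.114). With 4 samples against 4 the smallest p this test can give is 0.0286, and the intervals are wide. A change of some size relative to other B cell transcripts could have gone undetected, and neither its presence nor its absence was shown. Stress replicate 3 had the lowest ratio of the 8 samples for 7 of the 8 factors, at 4.51% for Pax5 and 1.35% for Ebf1, and Pou2af1 was the exception. Without that sample the log2 difference was -0.05 for Pou2f2, -0.01 for Bach2, -0.04 for Bcl11a, 0.07 for Ebf1, 0.16 for Foxo1 and 0.20 for Pou2af1, and Spib lay above the control range at 0.17. Without stress replicate 4, Pou2af1 did so, with a log2 difference of 0.28. With 1 sample fewer, groups separate more easily by chance, and the share of all tested genes that did so was not computed. Against Cd79a and Cd79b alone the log2 differences of all 8 factors were negative, from -0.44 for Pou2f2 and -0.42 for Pax5 to -0.11 for Spib and -0.01 for Pou2af1, and again none separated the groups. Cd79a and Cd79b are short, with 1457 and 1431 bases of exon, and changes moved with length, as given below. In the fit with an offset for length both passed, each at -0.43 (edgeR adjusted p = 0.0449 and 0.0381). The part of length in these ratios was not tested.

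**Figure D2:**
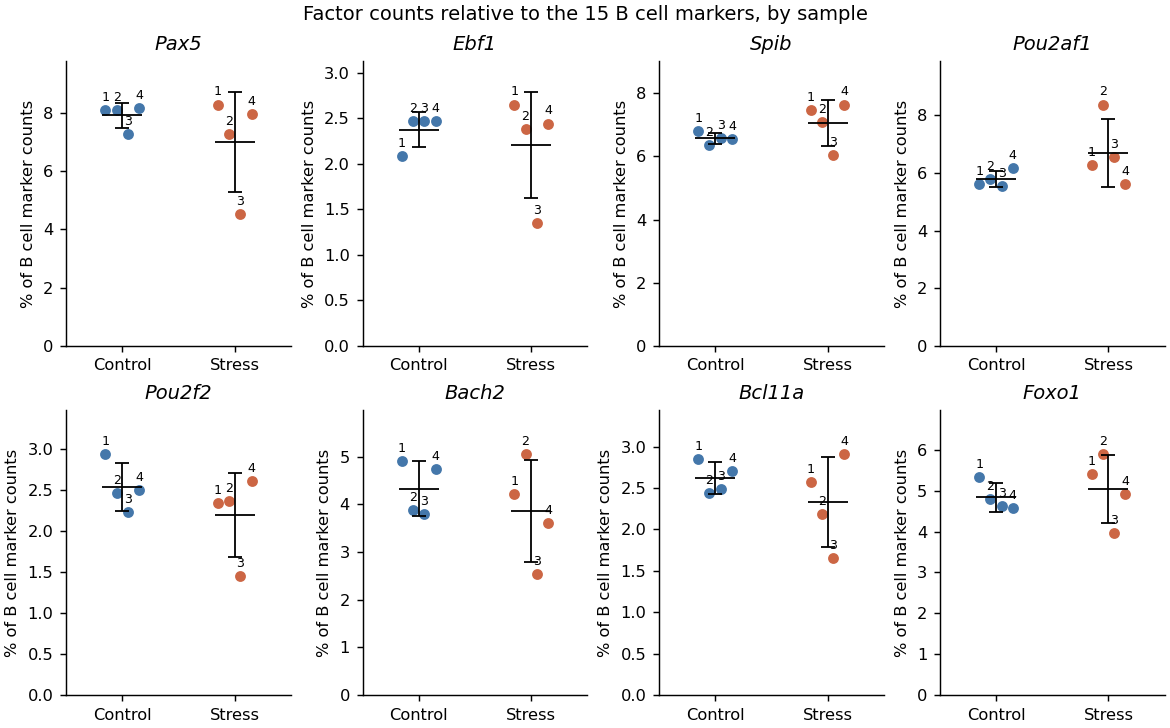
Counts of each factor as a percentage of the summed counts of 15 B cell markers in the same sample (y axes, from 0), with 1 point per sample, numbered by replicate, and the mean ± SD of 4 samples for control and stress. The groups overlap for all 8 factors, and stress replicate 3 is the low point for 7 of them, for example 4.51% for Pax5.

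The factors were also compared with each other within samples. Of the 28 pairs, none had a ratio that separated the groups, and none reached an unadjusted p below 0.05. The number of separated pairs was 6 without stress replicate 4, 3 without control replicate 3, 2 without control replicate 1 or stress replicate 1 or 2, and 1 without control replicate 2. With 1 sample fewer, groups separate more easily by chance, and the share among pairs of other genes was not computed. The lowest p was 0.0571 (two-sided exact permutation test, unadjusted) and was shared by 4 pairs, among them Pax5 relative to Spib with a log2 difference of -0.31. After subtracting group means, Pearson's r of log2 CPM over the 8 samples ran from 0.22 to 0.94 between pairs of the 7 factors other than Pou2af1, with Pax5 and Ebf1 at 0.94. Pou2af1 gave r of -0.45 to 0.07 with the other 7. The values of a sample share its depth and haemoglobin content. Without stress replicate 3 the r ran from -0.55 to 0.92 between the 7 factors and from -0.43 to 0.40 between Pou2af1 and the others. These ranges lay apart over the 8 samples and overlapped without that sample. Over the same 8 samples the tested genes most like Pax5 were Ckap5, Helz2 and Pprc1, with the first at r = 0.989, and those most like Ebf1 were Rapgef1, Rubcn and Trmt12, the first at r = 0.995. For Spib they were Soat1, Cd22 and Vcan (first r = 0.990), for Pou2af1 Crtam, Kctd7 and Ddx56 (first r = 0.977), and for Pou2f2 Gabpb2, Usp8 and Dmxl1 (first r = 0.995). For Bach2 they were Polr1a, Fry and Gsk3b (first r = 0.997), for Bcl11a Csgalnact2, Tlr9 and Adam19 (first r = 0.988), and for Foxo1 Diexf, Suco and Usp36 (first r = 0.990). Each set of 3 was the top of 10309 genes ranked over 8 samples. Cd22, a B cell receptor inhibitor, was the member of the B cell marker list among these 24 genes.

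Several factors have a close relative used by other blood cells. The ratio of a factor to its relative in the same sample does not depend on library scaling. Exon lengths were close for Spib and Spi1 (2868 and 2695 bases) and further apart for Bach2 and Bach1 (9940 and 6179 bases). Changes moved with length, as given below. The parts of cell mix and of length in these ratios were not tested. Spib over Spi1, which is abundant in myeloid cells, was 3.06, 3.94, 4.15 and 2.93 in the control samples and 1.46, 1.75, 1.53 and 1.76 in the stress samples. The groups were far apart, with a log2 difference of -1.10 (-1.50 to -0.73, exact permutation p = 0.0286, two-sided and the lowest possible). Spi1 itself rose from 25.6 ± 2.07 to 44.0 ± 8.04 CPM (SD, n = 4), giving a log2 fold change of 0.78 (edgeR adjusted p = 0.00249).

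Bach2 over Bach1, a repressor of haem-responsive genes, was 3.11, 2.91, 3.14 and 2.83 in the control samples and 1.58, 1.75, 1.54 and 1.24 in the stress samples. The groups did not overlap, and the log2 difference was -0.98 (-1.33 to -0.70, exact permutation p = 0.0286). Bach1 had a log2 fold change of 0.39 (SE 0.15), which did not pass (edgeR adjusted p = 0.0961). Foxo1 over Foxo3 was 1.64, 1.93, 1.92 and 1.29 in the control samples and 1.05, 1.01, 1.11 and 1.22 in the stress samples. The groups were separated by the narrow gap between control replicate 4 and stress replicate 4, with a log2 difference of -0.61 (-0.93 to -0.09, exact permutation p = 0.0286), and Foxo3 had a log2 fold change of 0.24 (edgeR adjusted p = 0.199).

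The other pairs overlapped. Pou2f2 over Pou2f1, the widely expressed octamer factor, was 1.30 ± 0.0633 in the control samples and 1.41 ± 0.131 in the stress samples (SD, n = 4), a log2 difference of 0.11 (-0.13 to 0.32, exact permutation p = 0.200). Pou2f1 fell as Pou2f2 did, with a log2 fold change of -0.74 (SE 0.15, edgeR adjusted p = 0.00589). Exons of Pou2f1 overlap those of Cd247 on the opposite strand over 3007 bases, so its counts are uncertain where strand was not used. Bcl11a over Bcl11b, the T cell relative, had a log2 difference of -0.35 (-1.14 to 0.19, exact permutation p = 0.171). It was -0.12 without stress replicate 2, and without control replicate 1 it was -0.43 and the groups lay apart. The Pou2f2 ratio also separated the groups without stress replicate 2, at 0.16. The groups were thus separated in 3 of the 5 pairs, or 4 without control replicate 1 or stress replicate 2, and these p are unadjusted. How often ratios of other gene pairs separate the groups was not computed, so this count has no background to be read against. For single genes over the B cell marker counts that share was 31.9% of all tested genes.

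**Figure D3:**
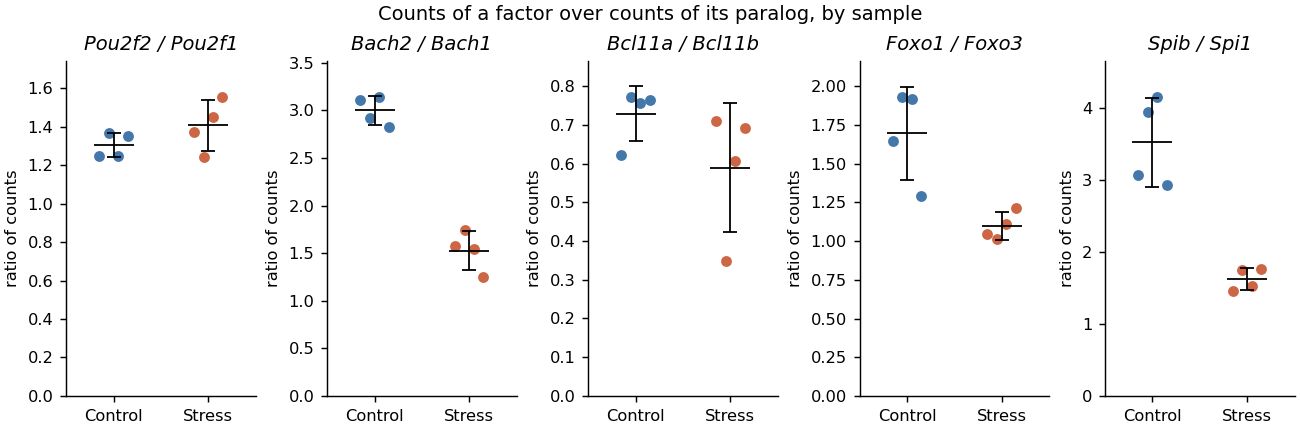
Ratio of each factor to its paralog in the same sample (y axes, ratio of counts, from 0) for 5 pairs, with 1 point per sample and the mean ± SD of 4 samples. Control and stress lie apart for Spib over Spi1, Bach2 over Bach1 and Foxo1 over Foxo3 and overlap for Pou2f2 over Pou2f1 and Bcl11a over Bcl11b.

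Of 16 genes known as targets of these factors, 15 had a negative log2 fold change (median -0.34) and 8 fell at an adjusted p below 0.05. The lowest p belonged to Cr2, complement receptor 2, with a log2 fold change of -0.79 (edgeR adjusted p = 0.00345), to Fcer2a, the low-affinity IgE receptor, with -0.72 (adjusted p = 0.00445), and to Cd22 with -0.72 (adjusted p = 0.00653). The target list shares 10 genes with the B cell markers. None of the 6 others passed, Il7r, Ccr7, Klf2, S1pr1 and Prdm1 among them, all of which T cells can also express, with log2 fold changes from -0.30 to 0.08. Of 20 other regulators of B cells, 19 were tested, with a median log2 fold change of -0.30, of which 3 fell and 2 rose. Over all tested genes 3.69% were called lower and 10.4% higher, so the share of these regulators that rose was near that of the whole table. Aff3 fell with a log2 fold change of -0.53 (edgeR adjusted p = 0.0159), as did Ikzf3 and Mef2c, which are named after their values were seen. Spi1 rose, as given above, and so did Xbp1, the plasma cell and secretory factor, with a log2 fold change of 0.68 (edgeR adjusted p = 0.00325).

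**Figure D4:**
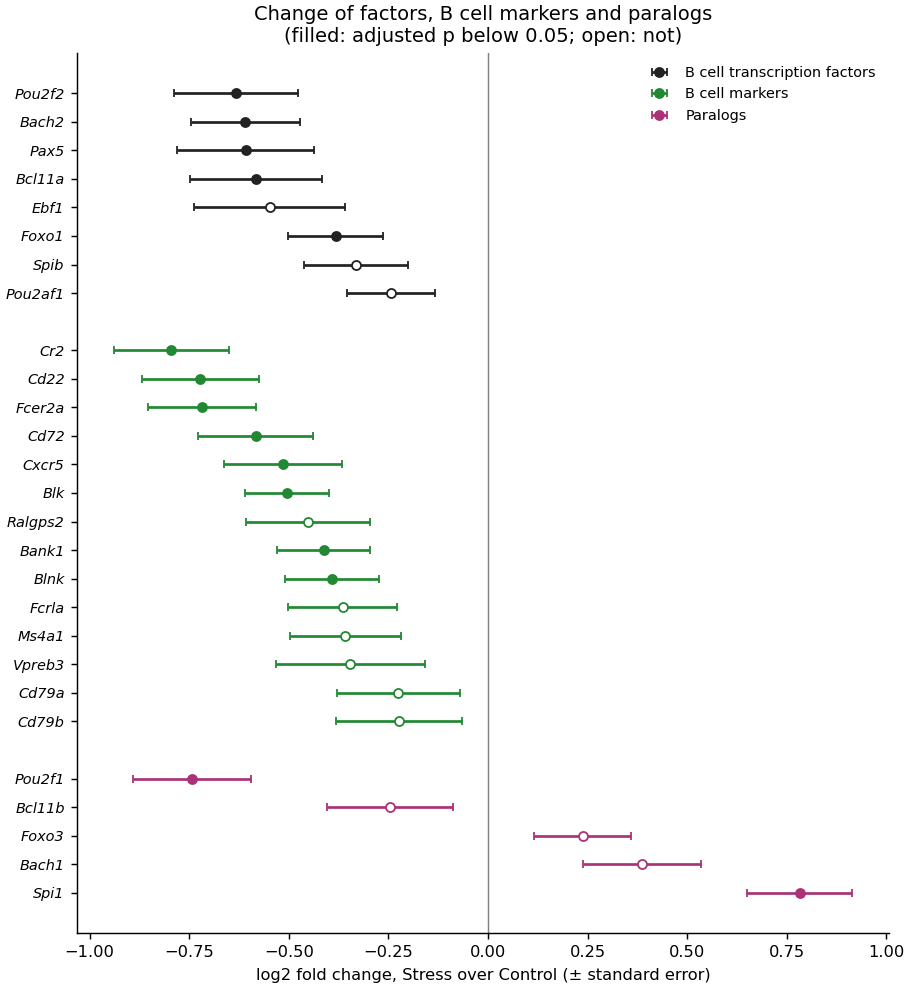
Log2 fold change of stress over control with its standard error (x axis) for the 8 factors, the B cell markers reported here and 5 paralogs, 4 samples a group. Filled points passed an adjusted p of 0.05 (edgeR) and open points did not. With TMM scaling all factors and B cell markers drawn lie left of 0, and Foxo3, Bach1 and Spi1 lie right of it.

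Markers of other blood cells did not all take the direction of the B cell markers. None of 12 T cell markers passed, their median log2 fold change was -0.09, and their summed CPM of 590 to 635 in the control samples and 523 to 668 in the stress samples overlapped. None of 6 NK cell markers passed (median -0.06). Of 8 plasma cell markers 7 were tested (median -0.10), and Xbp1 passed, upward. Of 6 plasmacytoid dendritic cell markers 4 were tested, all with a negative log2 fold change (median -0.31), and Pacsin1 fell (-0.49, edgeR adjusted p = 0.0201). Siglech, a defining marker of those cells, was near 0, with 0.952 ± 0.504 CPM in the control samples and 0.502 ± 0.316 in the stress samples. Of 13 neutrophil markers 12 were tested and 9 rose (median 1.49), against 10.4% of all tested genes called higher, their summed CPM being 198 to 389 in the control samples and 610 to 902 in the stress samples. Monocyte markers rose in 4 of 7 (median 1.17), platelet markers in 6 of 6 (median 0.98) and red cell markers in 1 of 4 (median 1.07). The part of these cells' RNA in the lower CPM of the factors was not tested.

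The size of the change also moved with transcript length. Over all tested genes the median log2 fold change went from 0.25 for those with at most 1500 bases of exon to -0.19 for those over 9000 bases, and from 0.17 to -0.10 without stress replicate 3. Spib and Pou2af1, the factors with the smallest changes, are the short ones with 2868 and 2549 bases of exon, in a class of 1501 to 3000 bases whose median was 0.09. Pax5, Pou2f2 and Foxo1 lie between 6001 and 9000 bases (median of all genes -0.10) and Ebf1, Bach2 and Bcl11a above 9000 bases. In a fit with an offset for length, added after the data were seen, the log2 fold changes of the 8 factors lay closer together, from -0.55 for Pou2f2 to -0.28 for Foxo1. Again 5 passed, in a fit that called 3.48% of all tested genes lower, but Pou2af1 now passed (-0.34, edgeR adjusted p = 0.0303) and Foxo1 did not (adjusted p = 0.0640). With the offset the median was -0.43 for the factors and -0.54 for the B cell markers.

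**Figure D5:**
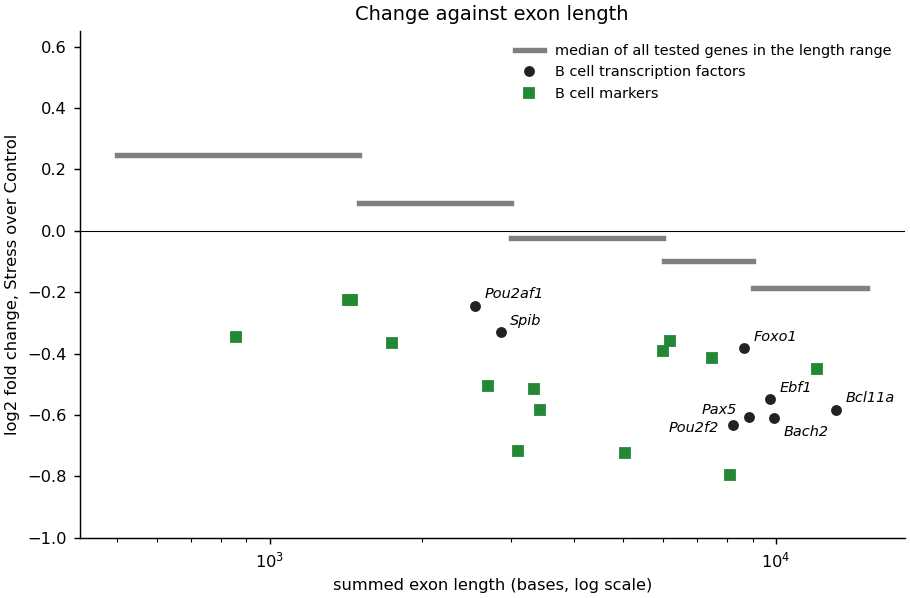
Log2 fold change of stress over control (y axis) against summed exon length in bases (x axis, log scale) for the 8 factors and the B cell markers reported here. Grey lines give the median of all tested genes in 5 length ranges, from 0.25 in the shortest to -0.19 in the longest, and the outermost lines are drawn to arbitrary ends. The other factors lie to the right, and Spib and Pou2af1 lie further left with smaller changes.

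The genes lie on GRCm38 as annotated by GENCODE M21. Pax5 spans chr4:44524757-44710487 and Bach2 chr4:32238804-32586108. Ebf1 spans chr11:44617317-45008091 and Bcl11a chr11:24078056-24174123, while Spib spans chr7:44525993-44532071 and Pou2f2 chr7:25087344-25179726. Pou2af1 spans chr9:51213708-51240080 and Foxo1 chr3:52268336-52353221. The exons of Pax5, Bach2, Bcl11a and Foxo1 share 316 to 761 bases with genes on the opposite strand, such as Bach2os, so reads of these partners could be counted with them. Pou2f2 shares 35 bases with Mir6537 on its own strand. Ebf1, Spib and Pou2af1 share none.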

How the data were processed

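Peripheral blood RNA was sequenced in 4 control and 4 stress samples. The authors deposited raw counts, whole numbers per gene symbol without normalization. The submitters' processing notes name HISAT2, featureCounts and mm10, with no versions, and the annotation and strand setting are not given in the sources used here. A strand-blind count would add reads of overlapping antisense genes.

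The 11718 genes that reached 10 counts in 4 or more samples were tested in R 4.3.3 with edgeR 4.0.16 (TMM, robust quasi-likelihood, Benjamini-Hochberg adjustment over all tested genes). The study's own thresholds belong to DESeq2, which was run here as an alternative (1.42.0), with limma-voom (limma 3.58.1). CPM used TMM-scaled library sizes, and TMM takes most genes as unchanged. Within-sample ratios used a pseudocount of 0.5 on counts and two-sided exact permutation tests over all 70 assignments. Intervals run from the lowest to the highest shift that this test did not reject at 0.05. Length came from GENCODE M21 exons for 96.9% of tested genes, with a lowess span of 0.3.

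The members, gene lists and tests were chosen with earlier results of these data known. Named genes were all members, every paralog, up to 3 per list by lowest p, and the 3 genes most like each member among those with a mean of at least 1 CPM. Other list genes named, such as Cd79a, Ms4a1 or Il7r, fall outside this rule and were chosen after their values were seen. The scripts were tested on simulated data. Alternatives were other normalizations, filters and tools, scaling to B cell markers, a replicate block, and fits without 1 sample each. Single values of some list genes are not reported here.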

Additional observations from a re-analysis of the deposited data

Results flagged for a closer look

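Among 32 groups of 4 samples checked, 2 held a sample set far from the other 3 by Dixon's test, which chance gives in about 1 of 20 groups. Pax5 was 7.28% of the B cell marker counts in control replicate 3, where the other control samples held 8.10% to 8.16%. Ebf1 was 2.08% in control replicate 1, where the other control samples held 2.47%.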

How the results depend on the processing

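All 8 factors stayed lower in the stress group under DESeq2, limma-voom, RLE or upper quartile scaling and other count filters. They also did so without haemoglobin genes and with the length offset. In these fits 4 or 5 passed at an adjusted p below 0.05. The share of all tested genes called lower in them was 2.52% (no filter) to 4.76% (DESeq2). The replicate block left 4, in a fit that called 2.05% of all tested genes lower. Foxo1 was lost there, as it was with RLE scaling, with no filter and with the length offset. The labels do not say whether samples of the same number were paired. Deviations of same-numbered samples correlated at -0.16 to 0.06, which cannot exclude a pairing. With total counts alone 8 passed, and 7 passed the thresholds of the study, but this fit called 49.6% of all genes lower, their median moved to -0.82, and the factors lay 0.25 to 0.54 below it. With scaling to B cell marker counts 0 passed, where 0.0683% of all genes were called lower, and Spib (0.10), Pou2af1 (0.21) and Foxo1 (0.064) turned positive, while the median of all genes moved to 0.42. Leaving out 1 sample gave 1 to 7 factors past the test, with 0.702% to 6.27% of all genes called lower. For the ratio to the markers it gave 0 to 1 separated factors, and for the 28 pairs 0 to 6 separated pairs. Without Cd79a and Cd79b among the markers, 1 factor separated, Spib (0.19). With Cd79a and Cd79b alone none did, and Spib (-0.11), Pou2af1 (-0.01) and Foxo1 (-0.15) were negative there. The share of all genes that separated was not computed for these marker sets or without 1 sample. The 3 separated paralog pairs stayed so without any 1 sample and with a pseudocount of 5, and leaving out 1 sample gave 3 to 4 such pairs. Ebf1 in stress replicate 3, with 189 counts, is the least deeply counted value.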
